A study of Mus musculus with 49 samples.

Results

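A set of transcription factor genes of the hepatocyte lineage was followed through every culture condition of the series. They were Hnf4a, Foxa1, Foxa2, Foxa3, Cebpa, Cebpb, Onecut1 and Prox1, chosen by name, and they are 8 of the 46078 gene identifiers in the count table. All 8 were detected. Mouse hepatocytes lose their mature character in monolayer culture and become proliferating progenitor-like cells called dediHeps, and the study followed that loss, the return of hepatocyte gene expression in three-dimensional aggregates, and the entry of dediHeps into intestinal organoid growth. RNA was read by CEL-seq2, a method that sequences the 3′ end of each transcript and counts unique molecular identifiers (UMIs), from bulk cultures in 49 libraries of 16 conditions.

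The cells came from wild-type C57BL/6J mice, 10 weeks old in every condition but the fetal one. Freshly isolated hepatocytes (FH, 3 libraries) were compared with hepatocytes after 3 h and after 1, 2, 4, 7 and 14 d in monolayer culture with EGF (3 libraries each), and with hepatocytes kept for 7 d with 0.3 µM verteporfin, an inhibitor of Yap-driven transcription, or with its solvent DMSO (2 libraries each). The dediHeps (5 libraries) were passaged monolayer cultures, and dediHep aggregates (3 libraries) were formed from them in low-attachment wells. CLiPs (3 libraries) are hepatocyte-derived progenitors made with small molecules by another protocol. Spherical organoids grown in Matrigel came from dediHeps (dediHep-SOs, 3 libraries) or from fetal intestinal progenitor cells of E13.5 embryos (FIPC-SOs, 3 libraries). Budding organoids came from dediHeps that carried introduced Cdx2 (dediHep-BOs, 3 libraries) or from intestinal stem cells of adult crypts (ISC-BOs, 4 libraries). Codes at the end of the column names, read here as culture names, matched all 3 aggregate and all 3 dediHep-SO libraries to dediHep libraries. No label states what the codes mean, so these groups may share cultures. Nothing in the labels says that the other replicates came from separate animals, and p-values therefore measure the spread between these samples, which may be technical.

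These factors work as a network that opens and maintains the hepatocyte programme. HNF4α, a nuclear receptor, and the FOXA proteins, winged-helix factors that can bind their sites in closed chromatin, act at very many hepatocyte enhancers, C/EBPα and C/EBPβ are leucine zipper factors that serve mature metabolism and the acute-phase and regenerative response respectively, and ONECUT1 (HNF6) and PROX1 are homeodomain factors of liver development. Several of them are not confined to the liver: HNF4α and the FOXA proteins also act in gut epithelium, PROX1 is a defining factor of lymphatic endothelium and occurs in enteroendocrine cells, and C/EBPβ is induced by stress and cytokines in many cell types.

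In the GENCODE annotation of GRCm38, Hnf4a (ENSMUSG00000017950) spans chr2:163506808-163572910 on the plus strand and Cebpb (ENSMUSG00000056501) chr2:167688915-167690418 on the same strand. Foxa2 (ENSMUSG00000037025) lies at chr2:148042877-148046969 on the minus strand. Foxa1 (ENSMUSG00000035451, chr12:57540628-57546916), Foxa3 (ENSMUSG00000040891, chr7:19013284-19023538) and Prox1 (ENSMUSG00000010175, chr1:190118035-190170714) are also on the minus strand. Cebpa (ENSMUSG00000034957, chr7:35119293-35121928) and Onecut1 (ENSMUSG00000043013, chr9:74861921-74891781) are on the plus strand. The sources used here do not state whether reads were counted by strand. Hnf4a overlaps the antisense gene Hnf4aos (199 counts in the table), Cebpb overlaps Tmem189 on the opposite strand (4263 counts), and Prox1 overlaps Prox1os (261 counts), so reads of those pairs may not be fully separated. Over all libraries the table held 25352 counts of Hnf4a, 3122 of Foxa1, 18512 of Foxa2, 5107 of Foxa3, 5748 of Cebpa, 19272 of Cebpb, 816 of Onecut1 and 17593 of Prox1.

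Promoter sequence is shown for Cebpb and Cebpa, whose levels parted within 3 h of plating. Each is the 120 bases before a start site, read 5′ to 3′ on the gene's strand from RefSeq promoters of GRCm38.p6, and capitals mark the motif named.
Cebpb, chr2:167688795-167688914, plus strand, 2 copies of TGACG, the core of the CREB motif: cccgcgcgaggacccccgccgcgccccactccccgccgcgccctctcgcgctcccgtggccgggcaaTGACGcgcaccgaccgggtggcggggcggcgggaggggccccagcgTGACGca
Cebpa, chr7:35119173-35119292, plus strand, TATA box (TATAAA): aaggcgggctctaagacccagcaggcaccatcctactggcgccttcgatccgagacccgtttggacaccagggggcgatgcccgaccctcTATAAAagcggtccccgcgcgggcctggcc

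The TGACG copies shown for Cebpb, each the core and not the whole of a CREB site, began 53 and 7 bases before the start and the TATA box of Cebpa 30 bases before it. The motifs below were searched on both strands in the 250 bases before each start, in 12 windows for the 8 genes. TGACG occurred in 17.8% of all 32851 annotated windows, TATAAA in 12.4%, the C/EBP motif TTGCNNAA in 9.56%, the FOXA motif TGTTTAC in 3.17%, the HNF4 motif AAAGTCCA in 1.01%, the ONECUT motif ATTGAT in 6.72% and the AP-1 motif TGANTCA in 6.75%. Foxa1 held the FOXA motif on the reverse strand 141 bases before its RefSeq start. That window (chr12:57546112-57546361) lies inside the GENCODE span of Foxa1, downstream of the start of the span. ONECUT motifs lay 59 bases before the first RefSeq start of Hnf4a and 213 bases before that of Foxa2. The first RefSeq start of Hnf4a also lies inside its GENCODE span. On the reverse strand TGACG also lay 180 bases before the Cebpb start and 139 bases before the Onecut1 start. TATAAA also occurred in windows of Foxa2, Foxa3 and Prox1. Matches of these short strings describe the letters of the window only.

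Library totals ran from 861047 to 3872936 counts (median 1976760). Levels are given as CPM, counts scaled to a common library size, with TMM factors, edgeR's scaling by the bulk of genes, set over the 49 libraries, and 3 counts correspond to 0.775 to 3.48 CPM. Differences are log2 fold changes from edgeR's quasi-likelihood test with Benjamini-Hochberg adjustment over all genes tested. A gene is said to have risen, fallen or passed at an adjusted p under 0.1, and errors of log2 values are standard errors. TMM and plain library totals gave different zero points against FH: with totals, the median of all genes rose by 0.64 to 0.88 log2 units at 1 d to 14 d, and by 0.88 in dediHeps, 0.65 in aggregates, 0.70 in CLiPs, 0.82 in dediHep-BOs and 0.80 in ISC-BOs, but moved by −0.08 at 3 h. Of the genes that passed in dediHeps against FH, 49.6% were higher with TMM and 78.6% with totals, and the corresponding shares were 44.4% and 73.4% at 1 d, 44.7% and 75.7% in aggregates and 52.2% and 76.2% in dediHep-BOs. All comparisons with FH share the same 3 FH libraries.

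The labelled tissue was checked with 7 hepatocyte markers (Alb, Apoa1, Ttr, Serpina1c, Cyp2e1, Asgr1 and Hnf4a itself), none of them at 0 in FH. Their summed level was 17356 to 22860 CPM in FH, 21741 to 22342 at 3 h, 7301 to 9306 at 1 d, 1395 to 1832 at 14 d, 863 to 4260 in dediHeps, 7269 to 11634 in aggregates and 102 to 135 in dediHep-SOs, where Alb, Serpina1c, Cyp2e1 and Asgr1 were at 0. FH also held non-parenchymal markers. The 6 Kupffer cell and leukocyte markers summed to 69.1 to 177 CPM in FH and 0.559 to 1.51 in dediHeps, the 6 endothelial markers to 94.5 to 111 in FH and 26.1 to 92.7 in dediHeps with Stab2, Kdr and Cdh5 at 0, and the 6 stellate cell and fibroblast markers to 77.4 to 203 in FH and 0 to 1.68 in dediHeps. Among the intestinal cultures, dediHep-BOs held 4.17 to 196 CPM of the stellate cell and fibroblast markers and FIPC-SOs 2.80 to 363. The part of such cells in the values below was not tested. Because these are bulk RNA samples, fewer cells of a type and less RNA per cell cannot be told apart.

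Plating split the factors into those that moved within hours and those that moved by the next day. At 3 h Cebpb rose, and Foxa2, Onecut1 and Prox1 fell, while Hnf4a and Cebpa overlapped FH and did not pass. By 1 d Cebpa had fallen, Cebpb had dropped below its FH level and Onecut1 was nearly lost. From 1 d to 14 d no step between neighbouring times passed for any of the 8 genes with TMM, and with library totals 1 did, Cebpa from 7 d to 14 d (log2 −1.10, edgeR adjusted p = 0.0987). Libraries of 4 d and 7 d with the same replicate number deviated together, and with that number as a block in a fit of these times alone Cebpa was higher at 7 d (log2 1.15 ± 0.34, edgeR adjusted p = 0.0596). Of the 48 tests against FH over 6 times, 31 passed, 2 of them higher and 29 lower. Of all 12443 genes tested, between 2301 (3 h) and 6921 (14 d) passed at each time in either direction. The 6 times are compared with the same FH libraries, so the 48 tests are not separate.

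**Figure D1:**
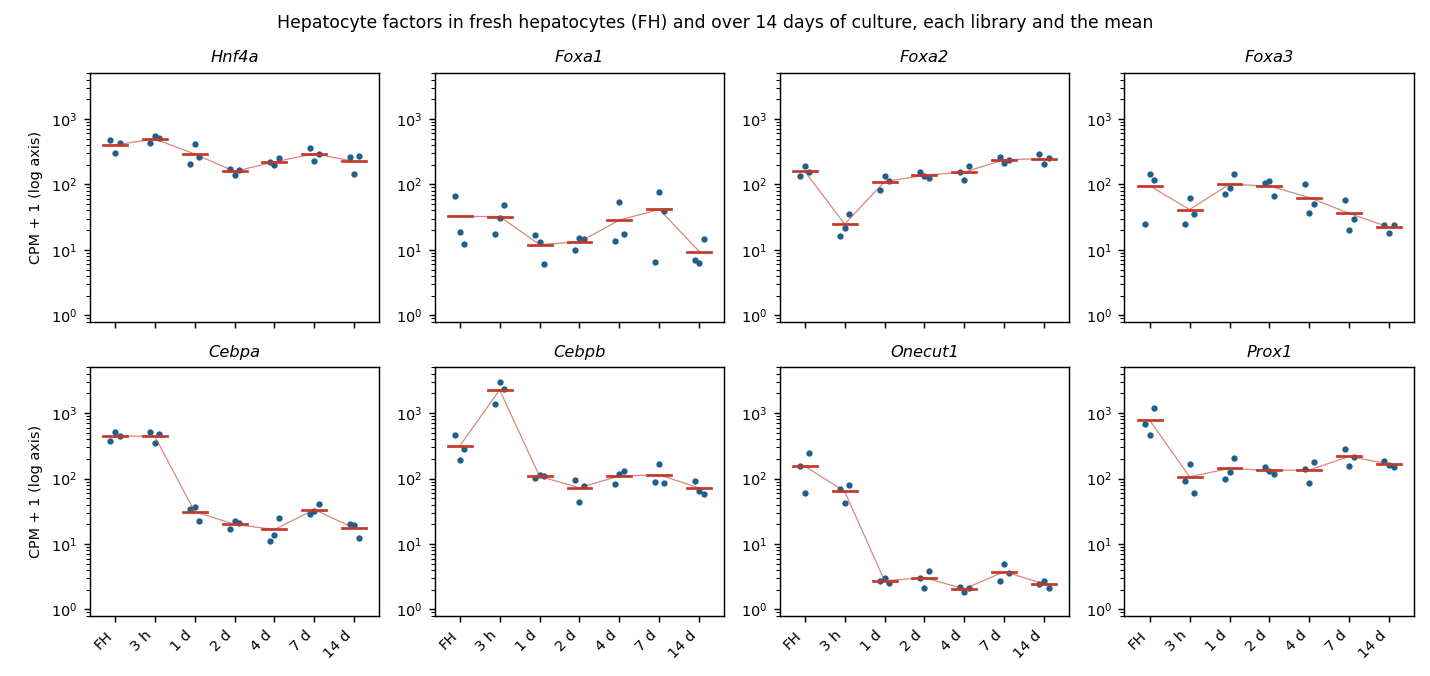
Level of each of the 8 genes in FH and after 3 h to 14 d of culture (CPM + 1, log axis; times are spaced evenly, not to scale). Points are libraries, red bars are means of 3 libraries and lines join the means. Cebpb peaks at 3 h at a mean of 2265 CPM, Foxa2 is lowest at 3 h at 23.7 CPM, and Cebpa and Onecut1 drop between 3 h and 1 d.

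Cebpb, the immediate responder, stood at 470, 190 and 281 CPM in the 3 FH libraries and at 1392, 3033 and 2371 CPM at 3 h. The groups did not overlap. The rise was 2.84 ± 0.39 on the log2 scale, or 7.14-fold (edgeR adjusted p = 6.84e-05). At 1 d the libraries read 102, 113 and 107 CPM, all under the lowest FH library. The level was then 3.10-fold lower than FH (log2 −1.63 ± 0.38, edgeR adjusted p = 0.00195) and 22.1-fold lower than at 3 h (log2 −4.47 ± 0.42, edgeR adjusted p = 6.52e-08). It ranged from 43.1 to 168 CPM over the libraries of 2 d to 14 d, and the decrease against FH passed at each of those times, with log2 values of −2.21, −1.59, −1.54 and −2.16. With library totals in place of TMM the 4 d and 7 d values were −0.73 and −0.68 and no longer passed (edgeR adjusted p = 0.113 and 0.130).

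Cebpa, the C/EBP of mature hepatocytes, stood at 369, 520 and 440 CPM in FH and 508, 348 and 480 CPM at 3 h. These values overlapped and their difference was −0.02 ± 0.31 on the log2 scale (edgeR adjusted p = 1). At 1 d Cebpa read 33.8, 35.8 and 21.3 CPM, all far under the lowest FH library. The decrease from 3 h to 1 d was 15.4-fold (log2 −3.94 ± 0.35, edgeR adjusted p = 2.82e-08). The level stayed between 10.2 and 39.5 CPM in all 12 libraries from 2 d to 14 d, and log2 differences from FH ran from −4.90 at 4 d to −3.82 at 7 d, with edgeR adjusted p between 5.67e-10 and 7.18e-09.

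Onecut1, a homeodomain factor of hepatocyte and bile duct development, was the factor most nearly lost. FH held 157, 60.2 and 246 CPM, which are 133, 44 and 238 counts. At 3 h the libraries held 68.8, 40.7 and 79.2 CPM, overlapping the lowest FH library, and the log2 difference was −1.32 ± 0.40 (edgeR adjusted p = 0.0341). That call rested on single libraries: the value was −0.80 without FH replicate 3 and −1.07 without the 3 h replicate 2, and neither passed. From 1 d on each library held 0.88 to 3.99 CPM, or 1 to 8 counts. Summed counts at 1 d were 92.7-fold lower than in FH, with a counting interval of 51.3 to 187.

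Prox1, a homeodomain factor of the fetal and adult hepatocyte, read 678, 457 and 1201 CPM in FH and 91.7, 167 and 58.2 CPM at 3 h. The groups were apart, and the decrease was 7.51-fold (log2 −2.91 ± 0.43, edgeR adjusted p = 0.000136). Between 3 h and 1 d the difference was 0.35 ± 0.40 on the log2 scale and did not pass (edgeR adjusted p = 0.491), whereas with library totals it was 1.08 and passed (edgeR adjusted p = 0.0249). All 18 cultured libraries from 3 h to 14 d lay between 58.2 and 285 CPM. The endothelial markers, whose cell type also uses Prox1, summed to 28.0 to 63.9 CPM at 3 h against 94.5 to 111 in FH, and to 38.1 to 175 CPM at 1 d, when Prox1 was no higher than 203 CPM. That list pools sinusoidal and lymphatic endothelium. Lyve1, one of its markers, read 1.37 to 8.26 CPM in FH and 7.64 to 13.2 CPM at 3 h. At 1 d Lyve1 read 12.2 to 84.1 CPM, above every FH library. The share of such cells in the Prox1 values was not tested.

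Foxa2, a pioneer factor of endoderm and liver, dipped and returned. It read 134, 189 and 154 CPM in FH, 15.3, 20.9 and 34.9 CPM at 3 h and 80.7, 135 and 112 CPM at 1 d. The 3 h libraries lay well under all others of the time course. The decrease at 3 h was 6.76-fold (log2 −2.76 ± 0.34, edgeR adjusted p = 1.47e-05) and the increase from 3 h to 1 d was 4.36-fold (log2 2.13 ± 0.33, edgeR adjusted p = 2.90e-05). By 14 d the libraries held 286, 205 and 249 CPM, all above FH, an increase of 0.61 ± 0.30 on the log2 scale that passed narrowly (edgeR adjusted p = 0.0979). This late call was lost in 11 of the 21 fits that left out 1 library, with values from 0.50 to 0.69 in those fits, namely without FH replicates 1 and 3, 3 h replicate 2, 1 d replicate 3, 2 d replicates 1, 2 and 3, 4 d replicates 1 and 3, and 14 d replicates 1 and 3. With library totals it was 1.34 (edgeR adjusted p = 0.000481), and the increases at 4 d (0.76) and 7 d (1.40) passed as well.

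Foxa3, the family member most tied to mature liver, varied widely in FH at 23.6, 145 and 115 CPM. It held 24.2, 61.7 and 34.9 CPM at 3 h and 69.8, 86.6 and 143 CPM at 1 d. From 2 d the level went down to 23.2, 17.0 and 23.2 CPM at 14 d, just below the lowest FH library. That decrease was 4.57-fold (log2 −2.19 ± 0.56, edgeR adjusted p = 0.00280). The 7 d difference of −1.49 ± 0.54 (edgeR adjusted p = 0.0287) was −1.04, −1.19 and −1.28 without FH replicate 2, 7 d replicate 2 and 7 d replicate 3, and did not pass in those fits, nor with library totals at −0.59 (edgeR adjusted p = 0.306). The increase from 3 h to 1 d (log2 1.23 ± 0.54, edgeR adjusted p = 0.0689) was 0.90, 0.98 and 1.16 without 1 d replicate 3, 3 h replicate 1 and 3 h replicate 3, and was lost there too.

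Foxa1, a pioneer factor close to Foxa2, was uneven within groups. The FH libraries read 64.9, 17.8 and 11.4 CPM, and the 7 d libraries 5.63, 76.8 and 38.8 CPM. Only the 14 d decrease passed (log2 −2.002 ± 0.82, edgeR adjusted p = 0.0479). It was −0.91 without FH replicate 1 and −1.76 and −1.64 without the 14 d replicates 1 and 2, none of which passed, and −1.34 with library totals (edgeR adjusted p = 0.177).

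Hnf4a, the nuclear receptor often placed at the head of this network, read 479, 298 and 421 CPM in FH, 427, 545 and 512 CPM at 3 h, 203, 410 and 263 CPM at 1 d and 170, 137 and 164 CPM at 2 d. Only the last of these groups lay wholly under FH. The decrease at 2 d was 2.69-fold (log2 −1.43 ± 0.31, edgeR adjusted p = 0.000948) and passed with library totals as well (−0.64, edgeR adjusted p = 0.0848). Smaller decreases passed at 4 d (−0.93 ± 0.31, edgeR adjusted p = 0.0196) and 14 d (−0.85 ± 0.31, edgeR adjusted p = 0.0275), but with library totals these were −0.06 and −0.15 and did not pass. At 1 d and 7 d the TMM values of −0.54 and −0.51 did not pass and turned to 0.10 and 0.35 with library totals. The 14 d value was −0.51 without 14 d replicate 2, and the 1 d value −0.87 without 1 d replicate 2, which then passed. From 3 h to 1 d Hnf4a fell by 0.83 ± 0.31 (edgeR adjusted p = 0.0333), a call lost without 1 d replicates 1 or 3 (−0.61 and −0.74) and with library totals (−0.09).

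Counts over the 8 genes are read against all 12443 genes tested in the time course. At 3 h 1 of the 8 rose and 3 fell, against 7.58% and 10.9% of all genes. At 1 d 4 of 8 fell, where 22.2% of all genes did. At 2 d, 4 d and 7 d it was 5 of 8 each time, against 23.1%, 23.5% and 23.5% of all genes. At 14 d 1 rose and 7 fell, where 28.0% of all genes rose and 27.6% fell. Between 3 h and 1 d 2 rose and 4 fell, against 26.5% and 26.2%. The median log2 difference of the 8 genes from FH was −0.63 at 3 h, −1.60 at 1 d and −2.18 at 14 d, and that of all genes was −0.07, −0.03 and 0.04. In the later steps edgeR's test without a block called none of the 8. At 1 d to 2 d, 7.68% of all genes passed in either direction, and 1 of the 8 (Hnf4a) was at an unadjusted p under 0.05 and passed with DESeq2. At 2 d to 4 d 3.60% of all genes passed, and none of the 8 by either measure. At 4 d to 7 d 3.40% passed, with 3 of the 8 (Foxa2, Cebpa and Onecut1) at an unadjusted p under 0.05 and 1 (Cebpa) with DESeq2. At 7 d to 14 d 2.89% passed, with 2 of the 8 (Foxa1 and Cebpa) at an unadjusted p under 0.05 and 1 (Foxa1) with DESeq2.

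Other liver-enriched transcription factors moved alongside. Of 20 listed, 19 were tested in the time course, and 2 rose and 8 fell at 3 h, 1 rose and 9 fell at 1 d, and 2 rose and 10 fell at 14 d. Nr5a2, a nuclear receptor of bile acid and cholesterol metabolism, went from a mean of 548 CPM in FH to 114 CPM at 3 h (log2 −2.30 ± 0.38), and Onecut2, the paralogue of Onecut1, from 577 to 199 CPM (log2 −1.55 ± 0.29). Creb3l3, a membrane-bound hepatic factor, was at 1241 CPM in FH and 7.08 CPM at 14 d (log2 −7.48 ± 0.68), and Klf15, a factor of fasting metabolism, at 111 CPM in FH and 3.15 CPM at 1 d (log2 −5.18 ± 0.57). Gata6, an endoderm factor, rose at every time, from 21.3 CPM in FH to 117 CPM at 7 d (log2 2.38 ± 0.47). The list's median log2 difference was −1.28 at 14 d.

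Hepatocyte genes that these factors are known to drive were mostly near FH at 3 h and lower at 1 d. Of the 19 tested of 20 listed, 1 rose and 2 fell at 3 h, 18 fell at 1 d and 19 fell at each later time. Their median log2 difference from FH was 0.05 at 3 h, −2.19 at 1 d, −6.91 at 4 d and −10.04 at 14 d. Tat, tyrosine aminotransferase, rose at 3 h from 528 to 2197 CPM (log2 2.06 ± 0.74, edgeR adjusted p = 0.0774), while Cyp8b1, a bile acid hydroxylase, fell from 2386 to 932 CPM. At 1 d Pck1, the gluconeogenic carboxykinase, was at 5.01 CPM against 1764 in FH, and Tdo2, tryptophan dioxygenase, at 23.5 against 2475. Alb went from a mean of 4419 CPM in FH to 107 CPM at 14 d. Counts stop at 4096 per gene and library because the UMI has 6 bases, so the FH levels of the most abundant genes are lower limits, while no member was near that ceiling other than Cebpb at 3 h.

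Of 15 acute-phase and early-response genes linked to C/EBPβ, 7 rose and 0 fell at 3 h, when Cebpb rose. Of all genes 7.58% rose and 10.9% fell at that time. Whether Cebpb bore on the listed genes was not tested. Lcn2, an iron-trap protein, went from a mean of 10.9 CPM to 612 CPM (log2 5.78), Myc from 1.70 to 352 CPM (log2 7.71) and Atf3, a stress factor, from 136 to 1568 CPM (log2 3.49). Between 3 h and 1 d 12 of the 15 fell and 1 rose. Socs3, a cytokine-signalling inhibitor, went from 183 to 2.10 CPM, whereas Lcn2 climbed to 1351 CPM. At 14 d 12 of the list were below FH, including the plasma proteins Fgg, Hp and Orm2.

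In the passaged dediHeps Foxa2 was the factor that had risen. It read 450, 707, 238, 378 and 430 CPM against 134, 189 and 154 CPM in FH, with no overlap. The increase was 2.55-fold (log2 1.35 ± 0.38, edgeR adjusted p = 0.0163) and 2.24 on the log2 scale with library totals. Another 5 factors fell, among them Cebpa, Onecut1 and Prox1. Cebpa was at 30.7, 20.6, 66.4, 59.2 and 24.6 CPM, an 11.9-fold decrease (log2 −3.57 ± 0.42, edgeR adjusted p = 6.68e-05). Onecut1 held 1, 5, 12, 7 and 7 counts, and its summed counts were 59.8-fold lower than in FH (counting interval 41.7 to 88.5). Prox1 read 87.8, 192, 117, 293 and 263 CPM, all under FH, and fell by 2.15 ± 0.44 (edgeR adjusted p = 0.00277).

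Hnf4a and Foxa3 were less certain. Hnf4a was at 130, 221, 362, 224 and 268 CPM in dediHeps, overlapping FH at its replicate 3. Its difference of −0.85 ± 0.35 passed with TMM (edgeR adjusted p = 0.0744) but turned to 0.04 with library totals. It also lost its call in 6 of 8 fits that left out 1 library, at −0.70, −0.76, −0.82 and −0.89 without dediHep replicates 1, 2, 4 and 5 and at −0.70 and −0.81 without FH replicates 1 and 3. Foxa3 read 5.03, 35.7, 10.9, 49.3 and 61.0 CPM and fell by 1.67 ± 0.73 (edgeR adjusted p = 0.0947), which became −1.67 and −1.44 without dediHep replicates 2 and 3 and −1.21 and −1.50 without FH replicates 2 and 3, none of which passed. With library totals it was −0.76 (edgeR adjusted p = 0.388). Cebpb spread from 101 to 732 CPM over the 5 dediHep libraries, on both sides of FH, with a difference of −0.01 ± 0.59 (edgeR adjusted p = 0.994).

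In all, 1 of the 8 rose and 5 fell in dediHeps, against 22.4% and 22.7% of 11276 genes. Of the other liver-enriched factors 3 rose, Gata6 and Esrra among them, and 7 of 19 fell, including Ppara, the fatty acid receptor, at a mean of 3.48 CPM against 99.0 (log2 −4.91 ± 0.61). All 19 driven hepatocyte genes that were tested fell, with a median log2 difference of −8.76. The acute-phase list had 2 higher and 7 lower of 14. The 7 cholangiocyte markers summed to 21.9 to 131 CPM in FH and 1044 to 1715 CPM in dediHeps, and the 6 intestinal epithelium markers to 13.0 to 51.6 and 36.9 to 1092 CPM. Their part in these differences was not tested.

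**Figure D2:**
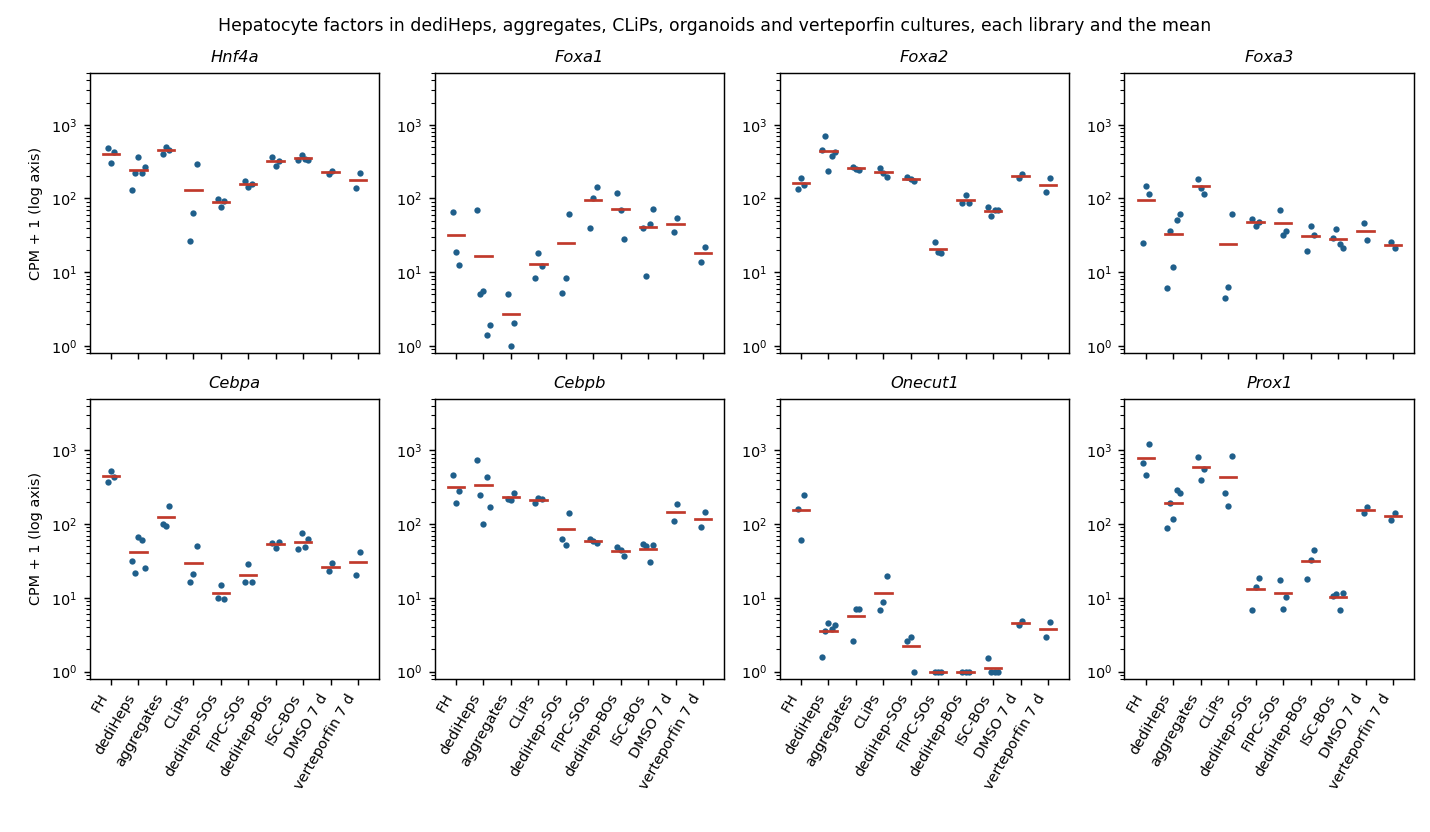
Level of each of the 8 genes in FH, dediHeps, aggregates, CLiPs, the 4 kinds of organoids and the 7 d DMSO and verteporfin cultures (CPM + 1, log axis). Points are libraries and red bars are means. Foxa2 is highest in dediHeps (mean 441 CPM) and lowest in FIPC-SOs (19.8 CPM), all organoid libraries of Prox1 lie at or under 43.0 CPM, and Onecut1 stands out in FH alone.

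In aggregates 4 of the 6 members that could be tested rose over dediHeps, against 12.2% of 11265 genes that rose. The paper kept aggregates in a medium from an earlier aggregation protocol and monolayers in its medium for hepatic progenitor cells. Three-dimensional growth and medium therefore cannot be told apart in this comparison. Foxa3 was at 182, 138 and 114 CPM in aggregates, above all dediHep libraries, an increase of 2.17 ± 0.62 (edgeR adjusted p = 0.0407). Prox1 read 807, 394 and 564 CPM, again above all dediHep libraries, and rose by 1.64 ± 0.40 (edgeR adjusted p = 0.0238). Cebpa read 101, 92.4 and 174 CPM and rose by 1.59 ± 0.43 (edgeR adjusted p = 0.0352). Hnf4a read 403, 501 and 458 CPM and rose by 0.91 ± 0.32 (edgeR adjusted p = 0.0752). With library totals the Hnf4a value was 0.69 and did not pass (edgeR adjusted p = 0.152). Foxa2 was at 268, 253 and 242 CPM, within the dediHep range (−0.78 ± 0.33, edgeR adjusted p = 0.126), although the decrease passed with library totals (−0.99, edgeR adjusted p = 0.0561).

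Single libraries bore on these calls. Without aggregate replicate 1 only 1 of the 4 passed, with Foxa3 at 1.97, Prox1 at 1.33 and Hnf4a at 0.99 not passing. Without aggregate replicate 3 Cebpa was at 1.27 and did not pass. The Hnf4a call was also lost without aggregate replicates 2 or 3 (0.86 and 0.92) and dediHep replicates 2 or 4 (0.87 and 0.88), and 5 members passed without dediHep replicate 3. Markers of other cell types differed between the groups. The 7 cholangiocyte markers summed to 339 to 591 CPM in aggregates and 1044 to 1715 CPM in dediHeps, the 6 goblet cell markers to 452 to 1101 and 2.24 to 36.5 CPM, and the 6 endothelial markers to 5.65 to 51.4 and 26.1 to 92.7 CPM. The goblet cell sum in aggregates did not rest on all its markers. Clca1 and Spdef were at 0 there, and Muc2 read 0, 0.434 and 0 CPM against 0.559 to 2.51 CPM in dediHeps. The part of these cell types in the differences was not tested.

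Against FH, Cebpa, Onecut1 and Foxa1 were lower in aggregates. Hnf4a differed by 0.09 ± 0.34 on the log2 scale (edgeR adjusted p = 0.872, −0.10 without FH replicate 2), Foxa3 by 0.54 ± 0.54 and Prox1 by −0.49 ± 0.42, and none of these passed. Of the 8, 3 fell, against 19.7% of 9544 genes. Cebpa stayed 3.87-fold lower (log2 −1.95 ± 0.38, edgeR adjusted p = 0.00304), Onecut1 held 1.61, 6.07 and 6.11 CPM, with summed counts 32.1-fold lower (counting interval 21.9 to 48.8), and Foxa1 read 4.03, 0 and 1.02 CPM (log2 −4.53 ± 0.98, edgeR adjusted p = 0.00610). With library totals 5 members passed, Foxa2 at 1.25 and Foxa3 at 1.21 being the additional ones.

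Genes that these factors are known to drive rose as well in aggregates. Of 15 driven hepatocyte genes tested between aggregates and dediHeps, 14 rose, with a median log2 difference of 4.97. The apolipoprotein gene Apoa2 went from a mean of 6.396 to 1509 CPM and Otc, the urea cycle carbamoyltransferase, from 9.01 to 666 CPM. Against FH 18 of 19 were still lower, with a median log2 difference of −1.99, and Pck1 was at 0.145 CPM. Among the other liver-enriched factors 5 of 17 rose over dediHeps, led by Rxra (37.9 to 217 CPM), Ppara (3.48 to 47.7 CPM) and Creb3l3 (67.3 to 690 CPM), and 3 fell (Onecut2, Esrra and Gata6). The acute-phase list divided into 7 that rose, with Saa1, Saa2 and Orm1 in front, and 5 that fell, with the early-response genes Fos, Atf3 and Egr1 in front.

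CLiPs differed strongly among themselves. Hnf4a read 25.1, 63.5 and 295 CPM, Foxa3 3.45, 5.25 and 59.7 CPM, and Prox1 267, 177 and 850 CPM in replicates 1, 2 and 3. Replicate 3 was the highest each time, and its summed hepatocyte markers were also highest, at 7029 CPM against 1496 and 1619 in the other two. Against FH, Cebpa (15.3, 20.0 and 50.2 CPM, log2 −3.90 ± 0.57, edgeR adjusted p = 0.00138) and Onecut1 (5.91, 7.78 and 18.5 CPM, log2 −3.78 ± 0.68, edgeR adjusted p = 0.00335) fell, which is 2 of 8 against 16.7% of 10445 genes. Without CLiP replicate 3 it was 5 of 8, with Hnf4a at −3.17 instead of −1.59 ± 0.80 (edgeR adjusted p = 0.171 with all libraries). Hnf4a lay under FH in all 3 CLiP libraries. With library totals Foxa2 was higher in CLiPs than in FH (log2 1.28, edgeR adjusted p = 0.0282), which TMM did not call (0.57 ± 0.38).

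Between CLiPs and dediHeps edgeR's test called none of the 8, where 4.69% of 11567 genes passed in either direction. Of the 8, 3 (Foxa2, Onecut1 and Prox1) were at an unadjusted p under 0.05, and 1 (Onecut1) passed with DESeq2. Onecut1 held 12, 37 and 41 counts in CLiPs, above every dediHep library in CPM, with a log2 difference of 2.05 ± 0.59 (edgeR adjusted p = 0.111). Of the other liver-enriched factors Gata4, an endoderm factor, was lower in CLiPs at a mean of 1.69 against 12.0 CPM. Against FH 4 of these factors rose and 9 fell, and 18 of 19 driven hepatocyte genes fell.

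In spherical organoids grown from dediHeps, 5 of the 7 tested members fell relative to dediHeps, against 8.21% of 11470 genes. Prox1 led with 5.78, 12.9 and 17.6 CPM, a 15.9-fold decrease (log2 −3.99 ± 0.56, edgeR adjusted p = 0.000982). Cebpa was at 8.99, 13.9 and 8.79 CPM (log2 −1.94 ± 0.49, edgeR adjusted p = 0.0279). Hnf4a was at 97.0, 76.4 and 91.6 CPM (log2 −1.45 ± 0.34, edgeR adjusted p = 0.0191), the lowest mean of the 16 conditions. Foxa2 was at 193, 181 and 170 CPM (log2 −1.29 ± 0.34, edgeR adjusted p = 0.0331), and Cebpb at 62.6, 51.6 and 142 CPM (log2 −1.998 ± 0.65, edgeR adjusted p = 0.0771), overlapping the lowest dediHep library. Onecut1 held 9 counts in all 3 libraries. The 7 cholangiocyte markers summed to 2548 to 3256 CPM here and 1044 to 1715 CPM in dediHeps, and their part was not tested.

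A fit with the shared culture name as a block left out dediHep replicates 4 and 5, whose names no dediHep-SO library had. In it only 1 of the 5 passed, Prox1 at −3.49 (edgeR adjusted p = 0.00540). The block and the fewer libraries cannot be told apart in this fit. Cebpa was then at −1.75 (edgeR adjusted p = 0.109), Cebpb at −1.70 (0.201), Foxa2 at −1.21 (0.203) and Hnf4a at −1.30 (0.213). Without the block the Prox1 decrease passed in every fit that left out 1 library. The Cebpa call was lost without dediHep-SO replicate 1 (−1.83), the Hnf4a call without dediHep-SO replicate 2 (−1.34), the Foxa2 call without dediHep-SO replicate 1 or 2 (−1.33 and −1.27) and the Cebpb call without either of these (−1.81 and −1.70) or dediHep replicates 2 or 4 (−2.10 and −1.91). Of 10 driven hepatocyte genes tested, 9 fell, with a median log2 difference of −9.65, and Apoa1 went from a mean of 978 to 0.321 CPM. Of the other liver-enriched factors 1 rose and 5 of 17 fell. Tbx3, a factor of early liver progenitors, went from 4.01 to 67.9 CPM, while Klf15, Nr1h4 and Creb3l3 went down. Mean Tbx3 was also 53.9 CPM in FIPC-SOs, 38.7 in ISC-BOs, 28.5 in dediHep-BOs and 37.3 in FH. It was 1.05 CPM in aggregates and 1.13 in CLiPs. Of the acute-phase list 6 of 11 fell.

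Set against fetal intestinal SOs, the dediHep-SOs held more Foxa2 and less Hnf4a. Foxa2 was 193, 181 and 170 CPM against 24.6, 17.9 and 17.0 CPM in FIPC-SOs, 8.90-fold higher (log2 3.15 ± 0.30, edgeR adjusted p = 0.000200), and this passed in every fit that left out 1 library. Hnf4a was lower than in FIPC-SOs (173, 142 and 159 CPM), at −0.88 ± 0.26 on the log2 scale (edgeR adjusted p = 0.0479), a call lost without dediHep-SO replicates 1 or 2 (−0.93 and −0.77) or FIPC-SO replicates 2 or 3 (−0.94 and −0.89). So 1 of 7 tested was higher and 1 lower, against 13.1% and 10.3% of 11608 genes. Prox1 was at 16.4, 5.96 and 9.32 CPM in FIPC-SOs and overlapped the dediHep-SOs, and Onecut1 had no count in any FIPC-SO library, at least 463-fold lower than FH with 3 counts over the group as the floor. Foxa1 spread from 38.2 to 144 CPM in FIPC-SOs and from 4.18 to 59.7 CPM in dediHep-SOs (log2 −2.04 ± 0.87, edgeR adjusted p = 0.143). The Cebpa difference was −0.93 ± 0.40 and did not pass, while with library totals it was −1.09 and did (edgeR adjusted p = 0.0928). Hhex, a factor of early liver and foregut, was higher in dediHep-SOs at a mean of 80.4 against 1.63 CPM, one of 5 other liver-enriched factors that were higher, and Hnf4g, the intestinal paralogue of Hnf4a, was lower at 1.07 against 22.9 CPM, one of 6. Of 6 driven genes tested 1 was higher and 4 were lower, and of 8 acute-phase genes 5 were higher.

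In budding organoids with introduced Cdx2, Hnf4a and Cebpa were up again relative to dediHep-SOs. The paper formed SOs with added Wnt activators and withdrew these during passaging to obtain budding organoids. Introduced Cdx2, medium and passage therefore cannot be told apart in this comparison. Hnf4a read 361, 279 and 322 CPM, 3.72-fold above dediHep-SOs (log2 1.89 ± 0.24, edgeR adjusted p = 0.000452), and Cebpa 54.8, 46.3 and 55.9 CPM, 5.09-fold above (log2 2.35 ± 0.32, edgeR adjusted p = 0.000623). Neither group pair overlapped, and both calls held in every fit that left out 1 library. Foxa2 went the other way, at 84.9, 109 and 87.2 CPM (log2 −0.92 ± 0.24, edgeR adjusted p = 0.0196). Prox1 at 17.0, 31.3 and 43.0 CPM was higher by 1.38 ± 0.48 (edgeR adjusted p = 0.0541) and Cebpb at 47.5, 43.2 and 36.3 CPM lower, at −0.98 ± 0.40 (edgeR adjusted p = 0.0897). In all 3 rose and 2 fell of 7 tested, against 19.2% and 21.3% of 11301 genes.

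The last 2 calls were weak. Prox1 was 1.40 and 1.08 without dediHep-BO replicates 2 and 3 and 1.04 and 1.43 without dediHep-SO replicates 1 and 2, none of which passed. The Cebpb call was lost without any of the dediHep-BO replicates (−1.07, −0.96 and −0.85) and without dediHep-SO replicates 1 and 3 (−1.15 and −0.36). Enteroendocrine markers, whose cell type also uses Prox1, summed to 115 to 465 CPM in dediHep-BOs and 0.321 to 0.496 CPM in dediHep-SOs. Their part in the Prox1 difference was not tested. All 8 driven hepatocyte genes that were tested rose from dediHep-SOs to dediHep-BOs, with a median log2 difference of 8.61. They included genes that intestinal epithelium also uses, with the urea cycle enzyme Cps1 at a mean of 731 against 0.154 CPM, Otc at 539 against 0.936 CPM and Apoa1 at 248 against 0.321 CPM, whereas Alb was at 0 in every dediHep-BO library. Of the other liver-enriched factors 7 rose, led by Creb3l3 (0.985 to 254 CPM) and Hnf4g (1.07 to 41.7 CPM), and 4 fell, and of 8 acute-phase genes 1 rose and 4 fell.

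Against adult intestinal BOs, the dediHep-BOs differed in 1 of 7 tested members, where 5.26% of 11303 genes were higher. That gene was Prox1, at 17.0, 31.3 and 43.0 CPM against 9.73, 10.5, 5.93 and 10.5 CPM in ISC-BOs (log2 1.76 ± 0.36, edgeR adjusted p = 0.0175), and it passed in every fit that left out 1 library. The enteroendocrine markers summed to 115 to 465 CPM in dediHep-BOs and 435 to 642 CPM in ISC-BOs, the endothelial markers to 4.41 to 9.18 and 8.78 to 18.8 CPM, and the stellate cell and fibroblast markers to 4.17 to 196 and 2.09 to 7.86 CPM. Their part in the Prox1 difference was not tested. The other log2 differences were −0.09 ± 0.18 for Hnf4a, −0.10 ± 0.27 for Cebpa, −0.08 ± 0.27 for Cebpb, 0.17 ± 0.33 for Foxa3, 0.50 ± 0.23 for Foxa2 and 0.85 ± 0.60 for Foxa1, and none passed. For Hnf4a the 95% interval reached from −0.45 to 0.27. Hhex was the only other liver-enriched factor that was higher (34.8 against 0.556 CPM) and Gata4 the only one that was lower (23.2 against 131 CPM).

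Both kinds of budding organoids had 6 of 8 factors below FH, against 26.6% of 10971 genes for dediHep-BOs and 25.6% of 11287 for ISC-BOs. On the log2 scale the difference from FH was −4.66 ± 0.50 in dediHep-BOs and −6.46 ± 0.43 in ISC-BOs for Prox1, −3.07 ± 0.32 and −3.01 ± 0.31 for Cebpa, and −2.89 ± 0.41 and −2.84 ± 0.38 for Cebpb. Onecut1 had no count in dediHep-BOs, at least 365-fold lower than FH with 3 counts over the group as the floor, and 1 count in ISC-BOs, 1449-fold lower with a counting interval of 259 to 57355. Foxa3 was also lower, at −1.62 ± 0.57 and −1.85 ± 0.51. In dediHep-BOs this was −0.77 with library totals, and −1.35 without dediHep-BO replicate 1 and −1.22 and −1.51 without FH replicates 2 and 3, none of which passed. Foxa2 was lower in dediHep-BOs at −0.75 ± 0.31 (edgeR adjusted p = 0.0650) but turned to 0.08 with library totals. That call was also lost without any of the 3 dediHep-BO replicates (−0.67, −0.85 and −0.69) and without FH replicate 2 (−0.64). In ISC-BOs Foxa2 was at −1.29 ± 0.30, and at −0.47 with library totals, which did not pass. Hnf4a did not pass in either, at −0.31 ± 0.31 and −0.25 ± 0.27, and turned to 0.50 and 0.54 with library totals. With all libraries kept, Foxa1 did not pass in dediHep-BOs with TMM but did with library totals, at 1.98 (edgeR adjusted p = 0.0326). Leaving out 1 library gave 4 to 7 passing members in dediHep-BOs with TMM. The 7 were reached without FH replicate 1, with Foxa1 among them.

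**Figure D3:**
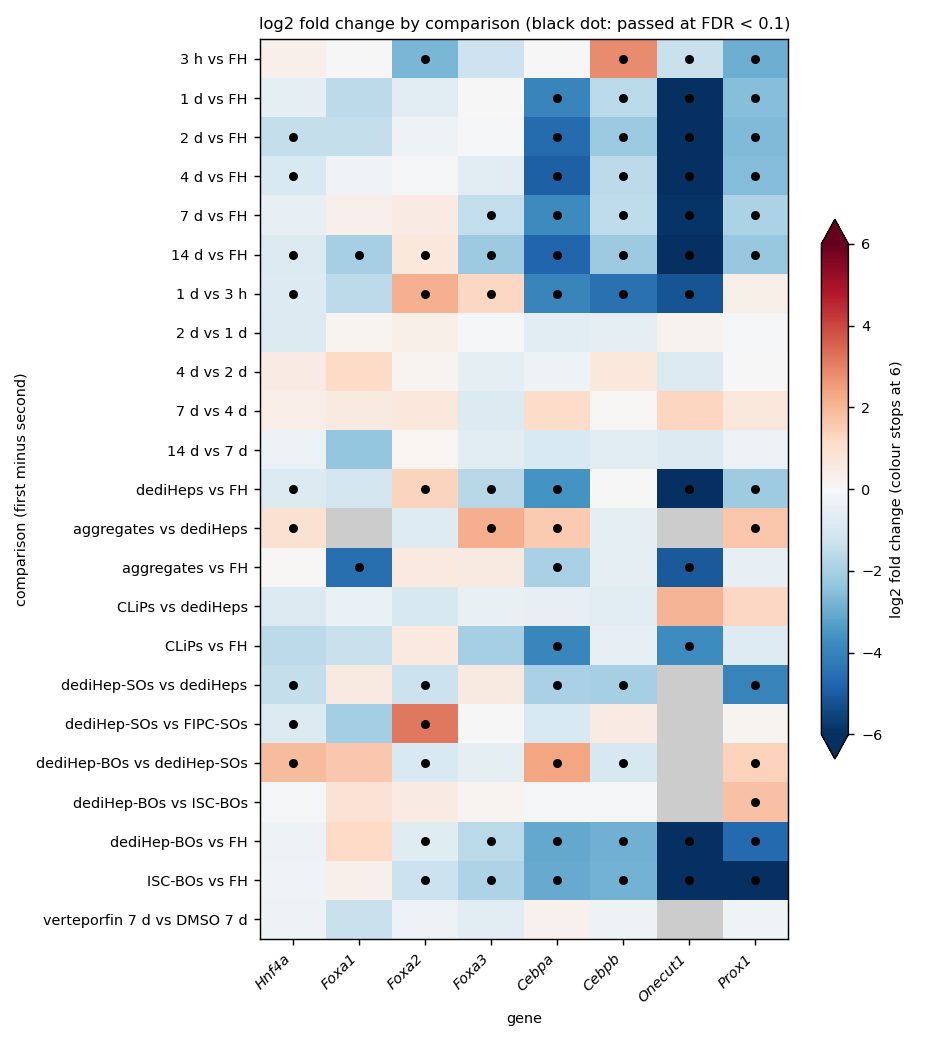
Log2 fold change of each of the 8 genes (columns) in each of the 23 comparisons (rows, first group minus second), with red for higher and blue for lower in the first group, grey for genes not tested and a black dot where edgeR's adjusted p was under 0.1. The Onecut1 column is the deepest blue against FH, and Foxa2 is red in dediHeps against FH (1.35) and in dediHep-SOs against FIPC-SOs (3.15). Fitted Onecut1 values against groups with no count depend on the prior count.

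Verteporfin and DMSO cultures were compared with only 2 libraries a side. EdgeR's test called none of the 7 tested, where 0.375% of 10400 genes (39 genes) passed in either direction. Of the 7, 1 (Foxa1) was at an unadjusted p under 0.05 and none passed with DESeq2. Foxa1 read 12.9 and 21.1 CPM with verteporfin and 34.3 and 52.6 CPM with DMSO (log2 −1.33 ± 0.37, edgeR adjusted p = 0.286). Hnf4a read 138 and 218 CPM against 212 and 238 CPM (log2 −0.32 ± 0.27). Creb3l3 was the only other liver-enriched factor of 14 tested that rose, from a mean of 10.6 to 95.8 CPM (log2 3.20 ± 0.33, edgeR adjusted p = 0.00713), and Hp, haptoglobin, was one of 2 acute-phase genes that fell.

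The ratio of Cebpb to Cebpa counts within a library does not depend on scaling. It was 0.366 to 1.27 in FH (median 0.638) and 2.74 to 8.72 at 3 h, without overlap. At 1 d to 14 d it stayed between 2.02 and 9.03, although both genes had fallen. In dediHeps it ran from 1.52 to 23.8 (median 7.23), in CLiPs from 4.39 to 12.7 and in dediHep-SOs from 3.71 to 16.2. Aggregates were at 1.49 to 2.27, above FH and near the lowest dediHep library. The budding organoids were the only cultures back in the FH range, at 0.649 to 0.933 in dediHep-BOs and 0.634 to 1.17 in ISC-BOs, against 2.12 to 3.95 in FIPC-SOs. Each is a ratio of 3′ UMIs and says nothing of protein.

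**Figure D4:**
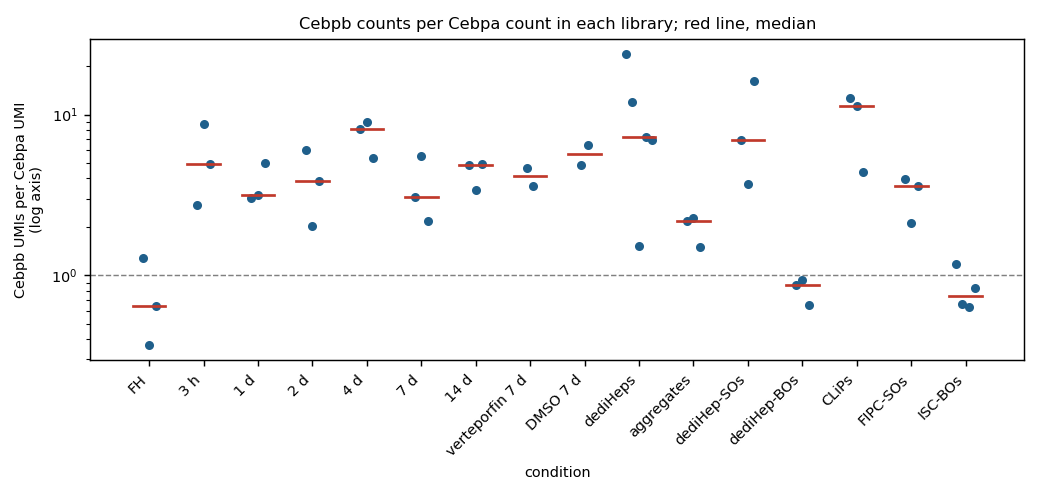
Cebpb UMIs per Cebpa UMI in each library of the 16 conditions (log axis). Points are libraries, red bars are medians and the dashed line marks equal counts. FH, dediHep-BOs and ISC-BOs lie around or under 1, and all other conditions have every library above 1.

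The make-up of the Foxa family shifted in the same scale-free way. Foxa2 gave 56.3% ± 3.51 (SD, n = 3) of Foxa1, Foxa2 and Foxa3 UMIs in FH, 25.2% ± 5.82 (n = 3) at 3 h and 49.8% ± 7.39 (n = 3) at 1 d. Its share then went from 56.8% at 2 d to 62.8% at 4 d, 75.7% at 7 d and 89.3% at 14 d, and was 90.0% ± 4.01 (SD, n = 5) in dediHeps, where the libraries ran from 85.8% to 94.7%. Aggregates held 63.9% ± 4.41 (n = 3), with Foxa3 at 35.7%. The libraries of 14 d and of dediHeps all lay above every FH library, whose highest share was 60.3%. FIPC-SOs held the lowest Foxa2 share at 13.1% ± 5.03, with Foxa1 at 56.6% ± 24.2 and Foxa3 at 30.4% ± 19.2 (n = 3 each). In FIPC-SO replicate 1 Foxa3 was the largest share at 52.5%, with Foxa1 at 28.9%. The dediHep-SOs held 72.5% ± 9.69 of Foxa2. The share of Foxa2 was 49.3% ± 10.9 (n = 3) in dediHep-BOs and 50.5% ± 5.58 (n = 4) in ISC-BOs, and these libraries overlapped.

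**Figure D5:**
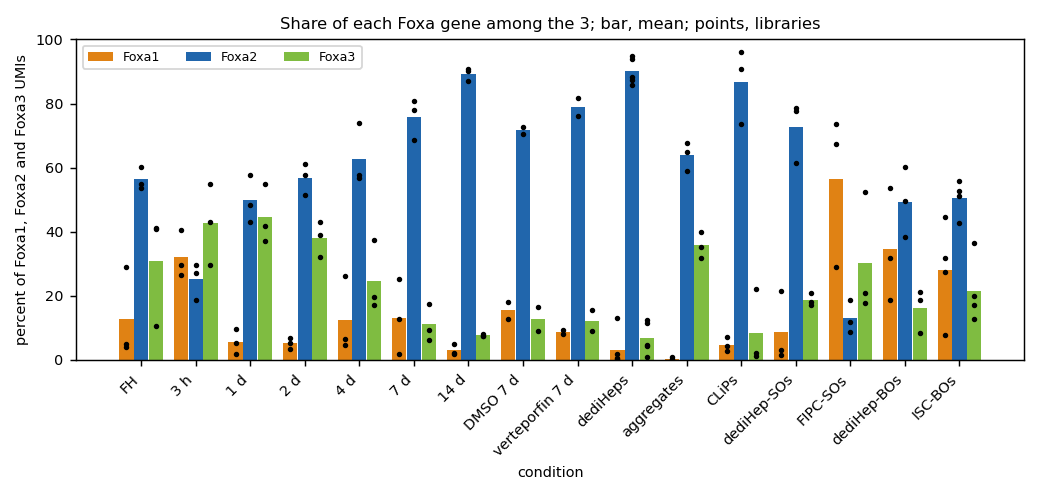
Share of Foxa1, Foxa2 and Foxa3 in their summed UMIs (percent) in the 16 conditions. Bars are means of libraries and points are libraries. The Foxa2 bar climbs from 25.2% at 3 h to 89.3% at 14 d and 90.0% in dediHeps and is lowest in FIPC-SOs at 13.1%.

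Over the 16 conditions the factors differed in how far they ranged, which is given as a description. Hnf4a spanned 5.60-fold between its highest mean (495 ± 61.1 CPM at 3 h, SD, n = 3) and its lowest (88.3 ± 10.7 CPM in dediHep-SOs, n = 3). Its 5 highest conditions, 3 h, aggregates, FH, ISC-BOs and dediHep-BOs, overlapped their neighbours within the SD. Foxa3 spanned 6.84-fold, from aggregates (144 ± 34.2 CPM) to 14 d (21.1 ± 3.57 CPM), and Foxa2 22.2-fold, from dediHeps (441 ± 170 CPM) to FIPC-SOs (19.8 ± 4.13 CPM). Cebpa spanned 42.2-fold, with FH and 3 h at 443 ± 75.6 and 445 ± 85.5 CPM, aggregates next at 122 ± 44.9 CPM and then ISC-BOs at 57.1 ± 13.8 CPM. Cebpb spanned 53.5-fold, from 3 h (2265 ± 825 CPM) to dediHep-BOs (42.3 ± 5.67 CPM). Foxa1 spanned 56.0-fold, from FIPC-SOs (94.3 ± 53.0 CPM) to aggregates (1.68 ± 2.10 CPM), where the 3 libraries held 5, 0 and 2 counts, so its span is uncertain. Prox1 spanned 85.1-fold, from FH (779 ± 382 CPM) to ISC-BOs (9.15 ± 2.17 CPM), and its 4 organoid conditions were the 4 lowest.

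Likeness of pattern was measured as Pearson's r of the 16 condition means on the log2 scale, over 10923 genes, and is a description over conditions that may share cultures and composition. The nearest genes to Cebpa were Scp2 (r = 0.96), Slc25a20 (0.96) and Acsl1 (0.95), which carry and activate lipids. Onecut1 was nearest to Gm4951 (0.97), Msrb1 (0.96) and Lamp2 (0.95), Cebpb to Echdc3 (0.93), Cpeb4 (0.93) and Stat3 (0.92), a cytokine-activated factor, and Prox1 to Rhobtb1 (0.93), Fga (0.91), a fibrinogen chain, and Pde4dip (0.91). For Hnf4a they were Fmo5 (0.87), Gsta2 (0.86) and A1cf (0.84), for Foxa2 Cep97, Ntn4 and Arhgef40 (0.88 each), and for Foxa3 Vkorc1l1 (0.82), Gm7899 (0.82) and Samm50 (0.80). The nearest to Foxa1 were Rps6-ps4 (0.90), Gm11878 (0.89) and Rps6-ps1 (0.89), 2 of them pseudogenes of a ribosomal protein gene whose reads the counting may divide among copies. Among the 8 themselves, r was highest for Cebpb with Onecut1 (0.83), then for Cebpa with Onecut1 (0.77). Outside FH and 3 h the highest Onecut1 mean was 10.7 CPM, in CLiPs, so many of its values lie near the floor. With a prior count of 0.5 these values were 0.83 and 0.68, and as Spearman's rho 0.88 and 0.46. For Hnf4a with Cebpa r was 0.75, and it was lowest for Foxa1 with Foxa2 (−0.65).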

How the data were processed

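RNA from 49 bulk libraries of 16 conditions had been sequenced by CEL-seq2, and the authors deposited 1 table of UMI counts per gene without normalization. Per the labels, bcl2fastq 2.20, Bowtie2 2.3.1 and HTSeq 0.6.0 were used with GRCm38, and the annotation release and strand setting are not given in the sources used here. Samples were grouped by their labels. Counts were tested with edgeR 4.0.16 (R 4.3.3), in 1 fit over the 7 times of the time course and in fits of the 2 groups compared elsewhere, after filterByExpr (minimum count 10, minimum total 15) and with TMM factors. DESeq2 1.42.0, other factors, filters and thresholds, a replicate or culture block and leaving out each library were alternatives, and library totals for the tests and a fit of 4 d and 7 d alone with the replicate number as a block were added after seeing the data. The scripts were tested on simulated data. Named genes are the 8 members, the 3 genes most like each in pattern, and at most 3 genes per list, direction and comparison with the smallest p among those that passed. The members and lists were chosen with earlier results of these data known. None of the 54 replicate pairs agreed within sampling noise. The 3 dediHep and aggregate pairs of 1 culture name deviated together (r = 0.169 to 0.323), so the names pair them. With the culture as a block, in a fit that left out dediHep replicates 3 and 5, no call between these groups was lost. Sums of counts carry counting error only in their intervals, at 95%. Depth was 861047 to 3872936 counts per library. Results for 1 listed gene, and for 1 motif, are not reported here.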

Additional observations from a re-analysis of the deposited data

Results flagged for a closer look

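Single libraries stood apart from their group in 4 of the 16 values examined, which are the 8 genes in the 2 groups of 4 or more libraries, and chance alone gives about 1 in 20. Foxa1 was at 69.3 CPM in dediHep replicate 1, where the next highest dediHep library held 4.53 CPM. In ISC-BOs, Cebpb was lowest in replicate 3 at 30.1 CPM with the next library at 49.3 CPM, and Prox1 was lowest in the same replicate at 5.93 CPM with the next at 9.73 CPM. Onecut1 was at 0.541 CPM in ISC-BO replicate 1 and at 0 in the other libraries. This is a single count, which any lone count among zeros would set apart, and it carries no weight in the 4 of 16.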

How the results depend on the processing

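Values below count the members that passed, with the reported count in brackets, and the cause of each change was not tested. With DESeq2, CLiPs against FH gave 5 (2), CLiPs against dediHeps 1 (0) and the neighbouring time steps 10 (6). With all 49 libraries in 1 fit the CLiP comparisons gave 4 (2) and 3 (0). Without a low-count filter CLiPs against FH gave 4 (2), verteporfin 1 (0) and dediHep-SOs against FIPC-SOs 4 (2), and a filter of 0.5 CPM in 1 library gave 1 for verteporfin and 4 against FIPC-SOs. With a log2 fold over 2 added, 3 (6) passed in dediHeps against FH, 1 (4) in aggregates and 1 (5) in dediHep-SOs against dediHeps, 1 (2) against FIPC-SOs, 1 (5) in dediHep-BOs against dediHep-SOs and 0 (1) against ISC-BOs, where edgeR's unadjusted p is under 0.05 for Prox1. At an adjusted p under 0.05 dediHep-BOs against dediHep-SOs gave 3 (5). Library totals gave 5 (3) in aggregates against FH and turned the log2 difference of Foxa2 in dediHep-BOs against FH to 0.0808 and those of Hnf4a to 0.103 at 1 d, 0.354 at 7 d, 0.0410 in dediHeps, 0.501 in dediHep-BOs and 0.543 in ISC-BOs. The replicate number as a block gave 4 (2) in CLiPs against FH, 1 (0) for verteporfin and 4 (2) in dediHep-SOs against FIPC-SOs. No label links the numbers of CLiPs to those of FH, or of dediHep-SOs to those of FIPC-SOs. Blocks in those comparisons may join unrelated libraries. In the time course 24 of 63 same-numbered pairs had deviations correlated over 0.1, and all 3 pairs did between 4 d and 7 d (r = 0.268 to 0.601) and between 1 d and 4 d (0.111 to 0.305). Numbers here are those of the sample titles, and the deposited column names number the 3 h libraries differently from the other times. Pairs and blocks that include 3 h may therefore join unrelated libraries. The number as a block over the 7 times gave 6 (6) for the neighbouring steps and 30 (31) against FH, and in a fit of 4 d and 7 d alone, added after seeing the data, 1 (0), Cebpa, against 0 there without the block. The culture name as a block left 1 (5) in dediHep-SOs against dediHeps, where libraries of 1 name did not deviate together (r = −0.435 to 0.018), and lost no call between aggregates and dediHeps. Both of these fits left out the dediHep libraries without a partner of the same name. Leaving out 1 library gave 2 to 5 in CLiPs against FH, 0 to 1 in CLiPs against dediHeps and for verteporfin, 1 to 5 in aggregates against dediHeps, 2 to 6 in dediHep-SOs against dediHeps, 1 to 3 against FIPC-SOs, 3 to 5 in dediHep-BOs against dediHep-SOs and 4 to 10 over the neighbouring steps. The Hnf4a difference of aggregates from FH then ran from −0.102 to 0.249. Where 2 libraries a side became 1, the lone library was assumed to vary like the others. Of the 128 condition levels, 27 moved by over 1 SD with a correction for repeated UMI sequences and 15 with library totals. Spearman's rho kept 9 of the 24 genes most like a member in pattern. Depth limits Onecut1 most, at 1 to 12 counts in each dediHep library.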
